A study of Mus musculus with 18 samples.

Results

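Chemokines and their receptor Ccr2 were followed in RNA from whole lumbar dorsal root ganglia (DRG) of mice with myeloma in the femur. The 9 genes were taken by symbol: the ligands Ccl2, Ccl7, Ccl12, Ccl5, Cxcl10, Cxcl12, Cxcl16 and Cx3cl1, and the receptor Ccr2. They are 9 of 48529 genes with an estimated count, and all 9 passed the filter on low counts that left 15774 genes to test. The MM group was 9 mice whose femur had been injected with 5TGM1-GFP cells, a single GFP-marked mouse myeloma (malignant plasma cell) line. The SHAM group was 9 mice given vehicle in the same way. All 18 mice were males of the strain C57BL/KaLwRijHsd, labelled as 5 to 7 weeks old, and gave the L2, L3 and L4 ganglia of the operated side on day 24 after surgery.

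Chemokines are small secreted or membrane-bound proteins that draw leukocytes along a gradient by way of G protein-coupled receptors. Ccl2, Ccl7 and Ccl12 are the monocyte chemoattractant proteins, which bring Ccr2-bearing monocytes out of blood into tissue. In sensory ganglia Ccl2 is known as a product of injured neurons and glia that acts on Ccr2, and Cx3cl1 as a neuronal membrane protein whose receptor is carried by macrophages. Cxcl12, made by stromal and endothelial cells, holds haematopoietic and plasma cells in the marrow through Cxcr4.

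RefSeq promoters (build GRCm38.p6) were at hand for 5 of the 9 genes: Ccl12, Cxcl10, Cxcl12, Cx3cl1 and Ccr2. The 250 bases before the start site are shown for 2 of them, because Ccl12 had the lowest adjusted p of the 9 genes and Cxcl10 is the ligand best known as an interferon target. Both are written in the direction of transcription. In capitals are an interferon-stimulated response element (ISRE) and a kappaB element in Cxcl10, and a TATA box in Ccl12. The ISRE was searched as GAAA, any 2 bases and GAAA, and the kappaB element as GGGA, any 2 bases and TTCC. Looser forms of these elements were not searched, so unmarked bases may hold further ones.
Cxcl10 (chr5:92348890-92349139, minus strand): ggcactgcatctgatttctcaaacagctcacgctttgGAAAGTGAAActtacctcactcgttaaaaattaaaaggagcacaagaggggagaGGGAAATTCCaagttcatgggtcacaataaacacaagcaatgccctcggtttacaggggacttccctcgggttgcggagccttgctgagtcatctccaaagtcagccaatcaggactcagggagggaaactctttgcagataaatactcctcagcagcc
Ccl12 (chr11:82101595-82101844, plus strand): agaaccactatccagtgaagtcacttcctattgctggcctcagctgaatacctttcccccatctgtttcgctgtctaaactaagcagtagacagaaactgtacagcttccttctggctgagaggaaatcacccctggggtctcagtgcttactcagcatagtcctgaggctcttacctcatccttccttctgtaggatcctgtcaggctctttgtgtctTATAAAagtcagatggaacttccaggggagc
The ISRE of Cxcl10 began at base -213 and the kappaB element at base -159, each 10 bases long and counted from the start site, and the TATA box of Ccl12 spanned -31 to -26. ISRE and kappaB motifs were searched on both strands, as was the gamma-activated site GAS (TTC, any 3 bases and GAA). The TATA box (TATAAA) was searched on the gene's strand. No motif overlapped another. Of 32851 mouse promoters of the same length, 2.98% held the ISRE, 1.21% the kappaB element, 7.02% the GAS motif and 7.59% the TATA box. The letters TATAAA also stood at -6 to -1 in Cx3cl1, nearer the start site than in Ccl12, and are a match of letters only. None of the 4 motifs stood in the windows of Cxcl12 and Ccr2.

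The libraries held between 19014161 and 21538262 reads in genes. Values are given in CPM, read counts relative to library size, scaled between libraries by TMM, and 3 reads were worth between 0.140 and 0.160 CPM. Samsn1, which the KaLwRij strain lacks, had 1 read over all 18 libraries, and the Y-linked gene Ddx3y was read in every library at 25.0 CPM or more. Summed over 13 sensory neuron markers, the libraries held 10568 to 23356 CPM in MM and 16925 to 22907 CPM in SHAM. Ighg2b, the immunoglobulin heavy chain that marks the myeloma, had 11.7 to 4374 CPM in MM and 0.1003 to 16.4 CPM in SHAM. MM5, MM8 and MM9 had the most, with 2197, 2334 and 4374 CPM, and the other 6 MM libraries had at most 390 CPM. MM2, with 11.7 CPM, lay below SHAM5 (14.8 CPM) and SHAM9 (16.4 CPM), so by Ighg2b these 3 libraries overlapped across the groups. Summed over 11 plasma and myeloma cell markers, MM2 had 136 CPM, within the SHAM range of 88.2 to 140 CPM. The erythroid sum of MM2, 134 CPM, lay below every SHAM library, with 942 CPM in SHAM5 and 500 CPM in SHAM9. The source of the Ighg2b reads in SHAM was not tested. SHAM6 stood apart by its blood genes (erythroid sum 2998 CPM, against 237 to 1076 CPM in the other SHAM libraries), and SHAM7 and SHAM8 by muscle and fat genes (3524 and 17252 CPM).

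Between MM and SHAM ganglia, Ccl2, Ccl7, Ccl12 and Ccl5 rose, and Cxcl10, Cxcl12, Cxcl16, Cx3cl1 and Ccr2 did not pass the test. With edgeR's quasi-likelihood test and Benjamini-Hochberg adjustment, 4 of 9 genes rose and 0 fell at an adjusted p under 0.05, where 2.75% of the 15774 genes rose and 0.241% fell. All 9 log2 fold changes were above 0, with a median of 1.28. Over all genes tested the median was -0.00 and 48.9% were above 0. At an unadjusted p under 0.05, 6 of the 9 genes were higher in MM, where 13.9% of all genes were. In 6 of the 9 genes at least 8 of 9 libraries of MM exceeded the SHAM median, which held for 13% of all genes. The plot of CPM by library shows that MM5 was the highest library of all 18 for each of the 9 genes.

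**Figure D1:**
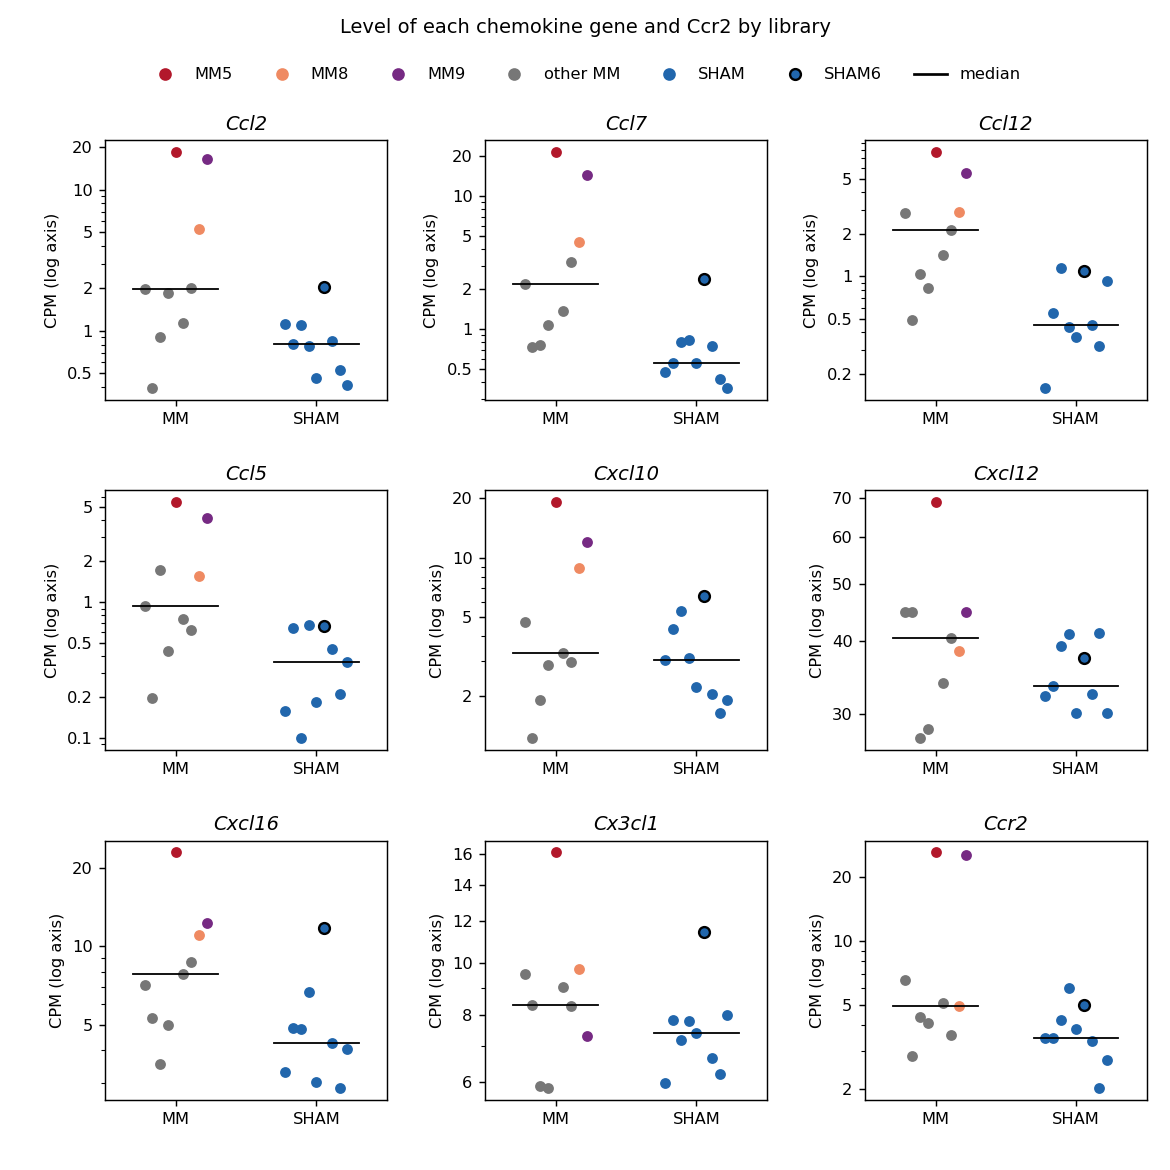
CPM of each of the 9 genes on a log axis, with the 9 MM libraries left and the 9 SHAM libraries right; each point is 1 library, bars are medians, MM5, MM8 and MM9 have their own colours and SHAM6 a black rim. MM5 is the highest point in every panel, and MM9 lies close to it for Ccl2 (16.5 CPM against 18.5 CPM in MM5) and Ccr2 (25.4 CPM against 26.2 CPM in MM5).

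The 3 monocyte chemoattractants rose together. Ccl2 (ENSMUSG00000035385), the main ligand of Ccr2, had a lowest, median and highest value of 0.394, 1.97 and 18.5 CPM in MM, against 0.413, 0.803 and 2.06 CPM in SHAM. The high values were those of MM5 (18.5 CPM), MM9 (16.5 CPM) and MM8 (5.29 CPM). These were the only MM libraries above the SHAM maximum, while MM2 lay below every SHAM library. Ccl2 averaged 5.39 ± 7.02 CPM in MM, against 0.903 ± 0.503 CPM in SHAM (SD with n = 9 each), a log2 fold change of 2.57 ± 0.66 (SE; edgeR adjusted p = 0.0449). In reads, these values stand for 8 to 397 reads a library in MM and 8 to 43 in SHAM.

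Ccl7 (ENSMUSG00000035373), which binds Ccr2 and also Ccr1 and Ccr3, ran from 0.739 CPM over a median of 2.17 CPM to 21.4 CPM in MM, and from 0.362 CPM over 0.559 CPM to 2.40 CPM in SHAM. All 9 libraries of MM exceeded the SHAM median, and MM5, MM9, MM8 and MM7 (21.4, 14.4, 4.55 and 3.21 CPM) lay above SHAM6, the highest SHAM library. Its mean was 5.51 ± 7.33 CPM in MM, against 0.795 ± 0.623 CPM in SHAM (SD with n = 9 each), and it had the largest log2 fold change of the 9 genes, 2.78 ± 0.68 (SE; edgeR adjusted p = 0.0356). Ccl12 (ENSMUSG00000035352), a monocyte chemoattractant of the mouse, had values of 0.4926, 2.15 and 7.73 CPM (lowest, median, highest) in MM and 0.160, 0.450 and 1.15 CPM in SHAM. For this gene all 9 libraries of MM exceeded the SHAM median, and 6 of them, MM1, MM5, MM6, MM7, MM8 and MM9, exceeded the SHAM maximum. Ccl12 averaged 2.77 ± 2.40 CPM in MM, against 0.609 ± 0.361 CPM in SHAM (SD with n = 9 each, log2 fold change 2.17 ± 0.49 SE, edgeR adjusted p = 0.0272).

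Exact permutation tests of the mean log2 CPM, 2-sided over all 48620 assignments of libraries to groups and unadjusted, gave p = 0.0199 for Ccl2, p = 0.00502 for Ccl7 and p = 0.00230 for Ccl12. The edgeR calls depended on single libraries. Without MM5, MM8 or MM9 the adjusted p of Ccl2 was 0.111, 0.0815 and 0.0980, that of Ccl7 0.0920, 0.0676 and 0.08002, and that of Ccl12 0.0644, 0.0587 and 0.0628. Leaving out 1 of SHAM1, SHAM2, SHAM3, SHAM4, SHAM5, SHAM7, SHAM8 or SHAM9 also ended the edgeR call of Ccl2 (adjusted p = 0.0675 to 0.0873) and of Ccl7 (0.0575 to 0.0768). For Ccl12 this held for SHAM1, SHAM2, SHAM5, SHAM7 and SHAM8 (0.0561 to 0.0615). The log2 fold changes stayed between 2.05 and 2.82 for Ccl2, between 2.13 and 3.20 for Ccl7, and between 1.80 and 2.34 for Ccl12 when 1 library was left out.

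The genes of Ccl2, Ccl7, Ccl11, Ccl12, Ccl8 and Ccl1 follow each other in this order on chromosome 11 in RefSeq's gene table. Of their tested neighbours, Ccl11, the eosinophil attractant eotaxin, averaged 9.72 ± 5.88 CPM in MM, against 7.02 ± 1.95 CPM in SHAM (SD with n = 9 each, log2 fold change 0.47 ± 0.31 SE, edgeR adjusted p = 0.379). Ccl1 averaged 0.640 ± 0.287 CPM in MM, against 0.698 ± 0.246 CPM in SHAM (edgeR adjusted p = 0.840). Neither passed the test. Ccl8 was removed by the filter on low counts.

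Ccl5 (ENSMUSG00000035042), the T cell and macrophage attractant RANTES that can act through Ccr1 and Ccr3, was the least read of the 9 genes. It had 4 to 117 reads a library in MM and 2 to 14 reads in SHAM. The lowest, median and highest values were 0.197, 0.936 and 5.45 CPM in MM, against 0.1004, 0.362 and 0.683 CPM in SHAM. MM1, MM3, MM5, MM6, MM8 and MM9 lay above all SHAM libraries and MM2 lay below the SHAM median. The means were 1.76 ± 1.82 CPM in MM, against 0.386 ± 0.237 CPM in SHAM (SD with n = 9 each), and Ccl5 rose by a log2 fold change of 2.16 ± 0.57 (SE; edgeR adjusted p = 0.0470). The exact permutation p, unadjusted, was 0.00913. This call was the closest to the threshold: edgeR's adjusted p was 0.0502 without MM3, 0.109 without MM5, 0.0849 without MM8 and 0.0981 without MM9, and between 0.0575 and 0.0925 without 1 of SHAM1, SHAM2, SHAM3, SHAM4, SHAM5, SHAM7, SHAM8 or SHAM9.

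Cxcl10 (ENSMUSG00000034855), the interferon-induced ligand of Cxcr3, did not pass the test. Its values were 1.23, 3.31 and 19.0 CPM (lowest, median, highest) in MM and 1.64, 3.04 and 6.37 CPM in SHAM. MM5, MM9 and MM8, with 19.0, 12.0 and 8.86 CPM, exceeded every SHAM library, and 4 of the other 6 MM libraries lay below the SHAM median. The log2 fold change was 0.91 ± 0.46 (SE; edgeR adjusted p = 0.246; exact permutation p = 0.271, unadjusted), and without MM5, MM8 and MM9 it was -0.24 (edgeR adjusted p = 0.884). Cxcl9, whose gene lies near it on chromosome 5, another ligand of Cxcr3, averaged 4.62 ± 4.14 CPM in MM, against 1.35 ± 0.95 CPM in SHAM (SD with n = 9 each, log2 fold change 1.77 ± 0.61 SE, edgeR adjusted p = 0.106). Cxcr3 itself was under the filter, with 62 reads over the MM libraries and 36 over the SHAM libraries.

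Cxcl12 (ENSMUSG00000061353), also called SDF-1, was the most abundant of the 9 genes and did not pass the test. It had 27.3, 40.4 and 68.8 CPM (lowest, median, highest) in MM and 30.2, 33.5 and 41.3 CPM in SHAM. MM5 stood alone at 68.8 CPM, and the next highest MM libraries, MM2, MM9 and MM1, had between 44.7 and 44.8 CPM. The means were 41.3 ± 12.4 CPM in MM, against 35.3 ± 4.51 CPM in SHAM (SD with n = 9 each, log2 fold change 0.23 ± 0.14 SE; edgeR adjusted p = 0.346; exact permutation p = 0.235, unadjusted).

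Salmon's estimates split Cxcl12 into 3 protein-coding transcripts, which differ in their last exon. By GENCODE M21, Cxcl12-202 has 89 codons and matches the alpha form, Cxcl12-203 has 93 and matches beta, and Cxcl12-201 has 119 and matches gamma, the form known from nervous tissue and heart. As a description with no test, Cxcl12-201 had 7.88 ± 2.38 TPM (a share of all transcripts, scaled by length) in MM and 8.07 ± 1.23 TPM in SHAM. Cxcl12-202 had 10.2 ± 7.89 TPM in MM, against 6.36 ± 2.98 TPM in SHAM, and Cxcl12-203 had 2.42 ± 1.46 TPM in MM, against 1.55 ± 0.98 TPM in SHAM (SD with n = 9 each). The excess of MM5 was mostly in the alpha transcript: 30.1 TPM, against at most 13.8 TPM in any other library. Its beta transcript was also the highest of all libraries, at 4.49 TPM, against at most 3.61 TPM in the others. The gamma transcript of MM5 stood at 7.49 TPM. Cxcl12-202 made up 44.8 ± 12.6% of the gene's TPM in MM and 37.5 ± 10.7% in SHAM, and Cxcl12-201 made up 41.0 ± 13.9% in MM and 50.2 ± 10.4% in SHAM (SD with n = 9 each), differences within 1 SD. The highest Cxcl12-202 shares, 71.2% in MM5 and 62.2% in SHAM6, were in the libraries with the highest fibroblast sums of their groups, 3480 CPM in MM5 and 2433 CPM in SHAM6. This was not particular to fibroblasts. MM5 and SHAM6 also had the highest endothelial, pericyte, glial, macrophage and monocyte sums of their groups, and the lowest sensory neuron sums. The part of any of these cells in the shares was not tested.

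**Figure D2:**
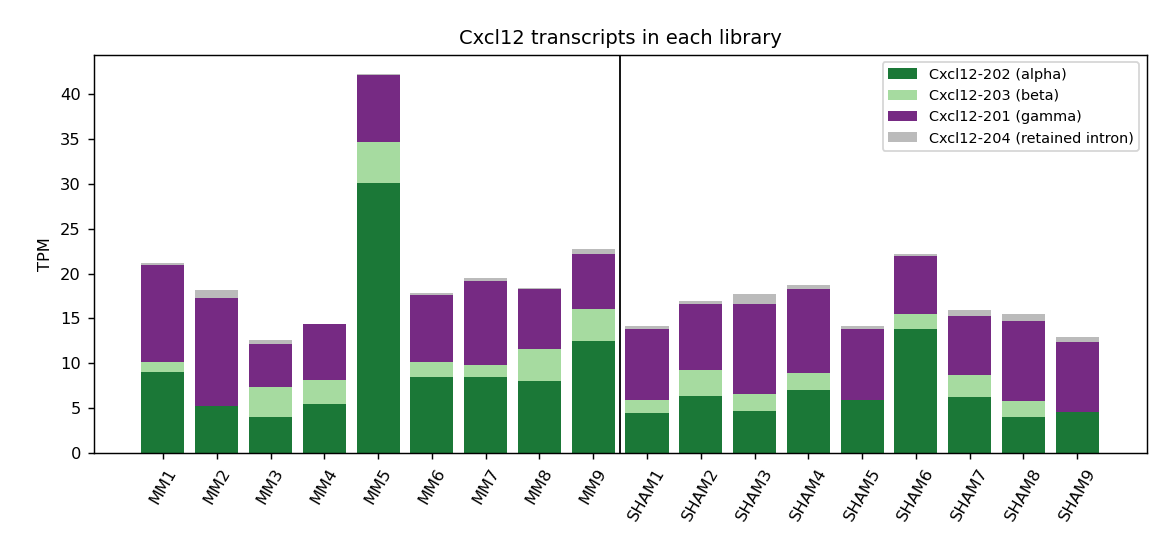
Stacked TPM of the 4 annotated Cxcl12 transcripts in each library, MM libraries left and SHAM libraries right. The dark green part, Cxcl12-202, reaches 30.1 TPM in MM5 and 13.8 TPM in SHAM6, while the purple part, Cxcl12-201, ranges from 4.72 to 12.1 TPM in MM and from 6.41 to 10.1 TPM in SHAM.

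Cxcl16 and Cx3cl1 are made as membrane proteins that the metalloproteases Adam10 and Adam17 can release. Cxcl16 (ENSMUSG00000018920), a scavenger receptor and ligand of Cxcr6, had 3.53, 7.85 and 22.9 CPM (lowest, median, highest) in MM and 2.86, 4.25 and 11.8 CPM in SHAM. In MM, 8 of 9 libraries lay above the SHAM median, but SHAM6, at 11.8 CPM, lay above all MM libraries other than MM5 and MM9. The mean was 9.31 ± 5.84 CPM in MM, against 5.07 ± 2.78 CPM in SHAM (SD with n = 9 each, log2 fold change 0.87 ± 0.34 SE, edgeR adjusted p = 0.143; exact permutation p = 0.0311, unadjusted). Without SHAM6 the log2 fold change of Cxcl16 was 1.14 and it passed edgeR's test (adjusted p = 0.0467). SHAM6 also had the highest SHAM sums of macrophage (279 CPM), monocyte (604 CPM) and neutrophil markers (293 CPM), whose part in this value was not tested.

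Cx3cl1 (ENSMUSG00000031778), or fractalkine, had 5.85, 8.37 and 16.1 CPM (lowest, median, highest) in MM and 5.97, 7.40 and 11.4 CPM in SHAM. Its groups overlapped: MM5 alone exceeded SHAM6. With 8.91 ± 3.05 CPM in MM, against 7.61 ± 1.61 CPM in SHAM (SD with n = 9 each), the log2 fold change was 0.23 ± 0.17 (SE; edgeR adjusted p = 0.434; exact permutation p = 0.300, unadjusted). Its receptor gene Cx3cr1, a marker of resident macrophages, averaged 4.97 ± 2.31 CPM in MM, against 5.37 ± 1.83 CPM in SHAM (edgeR adjusted p = 0.809). Adam10 had 157 ± 40.9 CPM in MM, against 130 ± 26.4 CPM in SHAM, and Adam17 had 24.8 ± 7.55 CPM in MM, against 19.8 ± 3.17 CPM in SHAM (SD with n = 9 each), with edgeR adjusted p = 0.304 and 0.209. Of 6 tested genes for chemokine-processing enzymes, 0 passed edgeR's or DESeq2's test in either direction. At an unadjusted edgeR p under 0.05, 1 of the 6, Adam17, was higher, where 13.9% of all genes were.

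Ccr2 (ENSMUSG00000049103), the receptor of Ccl2, Ccl7 and Ccl12 on inflammatory monocytes, had 2.86, 4.90 and 26.2 CPM (lowest, median, highest) in MM and 2.02, 3.46 and 6.001 CPM in SHAM. MM5 (26.2 CPM) and MM9 (25.4 CPM) stood apart, and MM1 (6.55 CPM) was the only other MM library over the SHAM maximum. The mean was 9.23 ± 9.46 CPM in MM, against 3.78 ± 1.18 CPM in SHAM (SD with n = 9 each). The log2 fold change of 1.28 ± 0.44 (SE) did not pass edgeR's test (adjusted p = 0.102, exact permutation p = 0.0552, unadjusted). It passed with DESeq2 (adjusted p = 0.0355), by which 3.69% of 30729 genes rose. These 30729 include genes to which DESeq2 gave no adjusted p, so the share among genes with one was higher.

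The monocyte genes Ly6c2 and Plac8 were highest in the same libraries as Ccr2, but the sum over all 12 monocyte markers was not: it was 892 CPM in MM5 and 348 CPM in MM9, against 604 CPM in SHAM6. Ly6c2, the surface antigen of Ccr2-bearing monocytes, had 44.7 CPM in MM5 and 48.5 CPM in MM9, against 2.30 to 10.3 CPM in the other MM libraries and 0.586 to 7.86 CPM in SHAM. Plac8 had 14.4 CPM in MM5 and 10.3 CPM in MM9, against at most 3.62 CPM in the other MM libraries and 2.06 CPM in SHAM. MM8 differed from MM5 and MM9 in Ccr2, Ly6c2 and Plac8, although its Ccl2, Ccl7, Ccl12 and Ccl5 exceeded every SHAM library. It held 2334 CPM of Ighg2b, against 2197 CPM in MM5, and 47.5 CPM of the phagocyte gene Cd68, against 62.2 CPM in MM5, but 4.90 CPM of Ccr2 and 4.75 CPM of Ly6c2. MM8 and MM4 were instead the libraries with most Atf3, the nerve injury factor, at 84.7 and 83.02 CPM, against 6.798 to 21.8 CPM in the other MM libraries and 11.9 to 27.3 CPM in SHAM.

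Without MM5, MM8 and MM9, the libraries with most tumour reads, 0 of the 9 genes rose with edgeR, where 0.331% of 15995 genes did, and 3 of them (Ccl12, Ccl7 and Ccl5) were higher at an unadjusted p under 0.05, where 5.4% of all genes were. The log2 fold changes were then 1.255 for Ccl12, 0.99 for Ccl5, 0.95 for Ccl7 and 0.60 for Ccl2 (edgeR adjusted p = 0.265, 0.492, 0.485 and 0.650), and 0.22 for Ccr2 and 0.30 for Cxcl16 (0.803 and 0.819). The 6 MM libraries left had 0.4926 to 2.86 CPM of Ccl12, against 0.160 to 1.15 CPM in SHAM, and 2.86 to 6.55 CPM of Ccr2, against 2.02 to 6.001 CPM in SHAM. Without MM2, SHAM5 and SHAM9, whose Ighg2b values overlapped across the groups, 1 of the 9 rose, where 1.44% of 15913 genes did. This was Ccl12, with a log2 fold change of 2.34 (edgeR adjusted p = 0.0423). Ccl2, Ccl7 and Ccl5 then had 2.53, 2.76 and 2.20 (edgeR adjusted p = 0.0823, 0.0785 and 0.0792). Without SHAM7 and SHAM8, 0 of the 9 rose, where 0.182% of 15966 genes did, with log2 fold changes of 2.47 for Ccl2, 2.67 for Ccl7, 2.02 for Ccl12 and 2.10 for Ccl5 (edgeR adjusted p = 0.122 to 0.146). With no filter on low counts, edgeR called 1 of the 9 genes, Ccl12 (adjusted p = 0.0437), where 1.02% of 30729 genes rose. With limma, 0 of the 9 rose on the deposited normalized values, where 1.09% of genes did, and 0 on the deposited TPM, where 0.596% did. With the replicate number as a block in edgeR, 0 rose, where 0.0444% did.

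**Figure D3:**
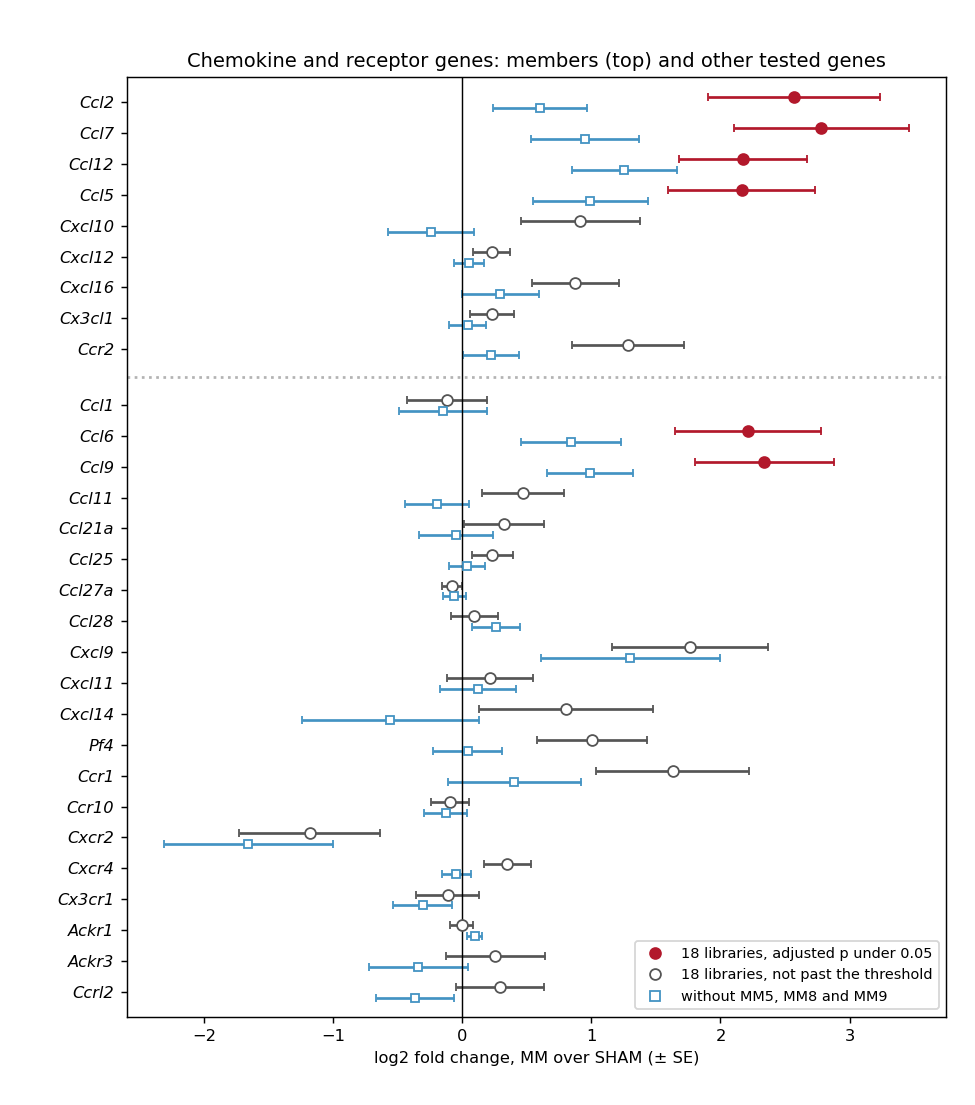
Log2 fold change of MM over SHAM with SE for the 9 genes (above the dotted line) and 20 other tested chemokine and chemokine receptor genes; circles are from all 18 libraries, filled red where the edgeR adjusted p is under 0.05, and squares are without MM5, MM8 and MM9. Ccl2 has 2.57 with all libraries and 0.60 without the 3, and Ccl12 2.17 and 1.255.

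Read per length, the order of the 9 genes differed between the groups. In MM the mean level was 20.8 ± 8.65 TPM for Cxcl12, 16.9 ± 13.5 TPM for Ccl12, 16.2 ± 20.6 TPM for Ccl7, 15.2 ± 18.9 TPM for Ccl2 and 12.0 ± 10.4 TPM for Cxcl10. Ccl5 followed with 10.7 ± 10.5 TPM, Cxcl16 with 8.23 ± 4.71 TPM, Cx3cl1 with 5.21 ± 1.503 TPM and Ccr2 with 4.37 ± 4.10 TPM (SD, n = 9). No neighbours in this order had means further apart than the larger of their SDs. In SHAM, Cxcl12 came at 16.5 ± 2.83 TPM, ahead of Cxcl10 at 7.21 ± 4.03 TPM, Cxcl16 at 4.79 ± 2.66 TPM, Cx3cl1 at 4.77 ± 1.39 TPM and Ccl12 at 4.10 ± 2.53 TPM. Ccl2 had 2.85 ± 1.56 TPM, Ccl7 2.604 ± 1.99 TPM, Ccl5 2.6 ± 1.60 TPM and Ccr2 1.97 ± 0.67 TPM (SD, n = 9). In SHAM, Cxcl12 and Cxcl10 were the only neighbours whose means lay further apart than the larger of their SDs, although their ranges overlapped (12.9 to 22.2 TPM and 3.04 to 15.1 TPM). By medians in place of means, 6 of 9 genes kept their place in MM and 5 of 9 in SHAM.

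**Figure D4:**
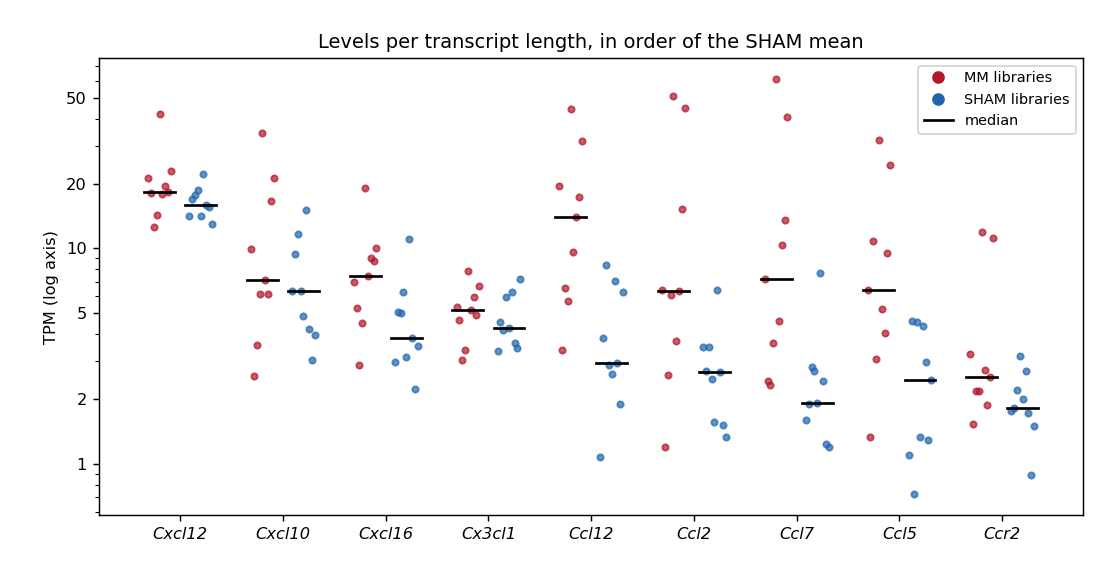
TPM of the 9 genes on a log axis in the order of their SHAM means; points are libraries, MM left and SHAM right for each gene, and bars are medians. The SHAM medians run from 15.9 TPM for Cxcl12 to 1.82 TPM for Ccr2, and the MM medians of Ccl12 (14.0 TPM) and Cxcl12 (18.4 TPM) are the highest of that group.

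Of 17 other CC ligands listed, 8 were tested, 2 rose, 0 fell and 6 did not pass, where 2.75% of all genes tested rose. The list's median log2 fold change was 0.28. Ccl9 and Ccl6, macrophage-made ligands of Ccr1 whose genes lie next to Ccl5, were those that rose. Ccl9 averaged 11.2 ± 12.4 CPM in MM, against 2.21 ± 1.17 CPM in SHAM (log2 fold change 2.34 ± 0.54 SE, edgeR adjusted p = 0.0293). Ccl6 averaged 16.8 ± 19.4 CPM in MM, against 3.61 ± 2.24 CPM in SHAM (SD with n = 9 each, 2.21 ± 0.56 SE, edgeR adjusted p = 0.0427). For both, MM5 and MM9 were the highest libraries, with 35.3 and 30.2 CPM of Ccl9 and 57.1 and 42.6 CPM of Ccl6. Neither passed edgeR's test without MM5, MM8 and MM9, with log2 fold changes of 0.99 for Ccl9 and 0.84 for Ccl6 (adjusted p = 0.295 and 0.521). With DESeq2, run without the filter, 5 of the 17 rose, Ccl4 (adjusted p = 0.0305), Ccl8 (1.46e-08) and Ccl19 (0.0326) besides these. Of 30729 genes, 3.69% rose by DESeq2.

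Of 13 other CXC and XC ligands, 4 were tested and 0 passed with edgeR. With DESeq2, run without the filter on low counts, 3 of the 13 rose, where 3.69% of 30729 genes did. They were Cxcl9 (adjusted p = 0.0366), and, from below the filter, Cxcl1 (log2 fold change 3.18, adjusted p = 0.0263) and Cxcl13 (2.26, adjusted p = 0.0253). With edgeR, 2 of the 4 were higher at an unadjusted p under 0.05 (Cxcl9 and the platelet factor Pf4), where 13.9% of all genes were. Of the other receptors, Ccr1, which Ccl5, Ccl6, Ccl7 and Ccl9 can bind, averaged 3.25 ± 3.38 CPM in MM, against 1.04 ± 0.995 CPM in SHAM (edgeR adjusted p = 0.124). Cxcr4, the receptor of Cxcl12, averaged 16.6 ± 6.27 CPM in MM, against 13.04 ± 1.70 CPM in SHAM (SD with n = 9 each, edgeR adjusted p = 0.260). Its highest libraries were MM9 (25.6 CPM), MM8 (25.2 CPM) and MM5 (22.9 CPM), those with most Ighg2b.

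Atypical receptors bind chemokines without signalling through G proteins. Of 5 listed, 3 were tested and 0 passed with edgeR, at an unadjusted p under 0.05 too, or with DESeq2. Ackr1, which carries chemokines across vessel walls, stood at 63.4 ± 9.45 CPM in MM, against 63.7 ± 6.11 CPM in SHAM, and Ackr3, which takes up Cxcl12, at 11.0 ± 7.54 CPM in MM, against 9.23 ± 6.21 CPM in SHAM (SD with n = 9 each, edgeR adjusted p = 0.975 and 0.710).

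Downstream of the receptors, 3 of 21 listed signalling genes rose and 0 fell, where 2.75% of all genes tested rose. The list's median log2 fold change was 0.06. The 3 were Pik3cg (2.32 ± 0.52 SE), the leukocyte PI3 kinase driven by G proteins, Vav1 (2.29 ± 0.53) and Dock2 (1.71 ± 0.42), exchange factors for Rac in leukocytes, with edgeR adjusted p = 0.0267, 0.0311 and 0.0356. Of the 21, 0 passed without MM5, MM8 and MM9. At an unadjusted edgeR p under 0.05, 4 were higher in that fit, where 5.4% of all genes were. Genes expressed in most cells, such as Gnai2 (331 ± 29.3 CPM in MM, against 319 ± 23.5 CPM in SHAM; edgeR adjusted p = 0.558), did not pass.

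Of 20 interferon-induced genes and factors, 13 rose, 0 fell and 7 did not pass, where 2.75% of all genes tested rose. The list's median log2 fold change was 0.92. The 3 with the lowest p were Ifi44 (1.85 ± 0.27 SE), the interferon factor Irf7 (2.14 ± 0.34) and the antiviral gene Oasl2 (0.86 ± 0.14), each with edgeR adjusted p = 0.00681. Irf7 ran from 11.1 to 80.0 CPM in MM and from 4.90 to 11.3 CPM in SHAM, so that 1 library of MM, MM6 at 11.1 CPM, lay within the SHAM range. Without MM5, MM8 and MM9, 5 of the 20 rose, where 0.331% of 15995 genes did. Among them were Irf7 (1.41), Ifi44 (1.39) and Oasl2 (0.68), with edgeR adjusted p = 0.00957, 0.0113 and 0.0440. Of 16 tested genes among NF-kappaB factors and inflammatory cytokines, 2 rose and 0 fell: Nfkbia, the inhibitor of NF-kappaB (36.5 ± 12.5 CPM in MM, against 20.5 ± 6.71 CPM in SHAM; log2 fold change 0.83 ± 0.21 SE), and Nfkbiz (5.92 ± 5.23 CPM in MM, against 2.11 ± 0.465 CPM in SHAM; 1.48 ± 0.39), with edgeR adjusted p = 0.0408 and 0.0462. With DESeq2, run without the filter, 7 of the 20 listed rose, where 3.69% of 30729 genes did. Il1b and Il6 were among them (DESeq2 adjusted p = 0.00317 and 0.0155). Of the 16, 0 passed edgeR's test without MM5, MM8 and MM9. At an unadjusted edgeR p under 0.05, 2 were higher in that fit, where 5.4% of all genes were. The lists were drawn up with results from these libraries known, so their counts are not independent evidence of a direction.

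Some markers of leukocytes rose as well, and some of B cells fell. Of 15 macrophage markers 8 rose with edgeR, where 2.75% of all genes tested did. Their summed level was 150 to 835 CPM in MM and 88.6 to 279 CPM in SHAM. Of 12 monocyte markers 4 rose (Ms4a4c, Plac8, Spn and Ly6c2), with sums of 93.8 to 892 CPM in MM and 68.0 to 604 CPM in SHAM. Of 9 tested plasma and myeloma cell markers 8 rose, with sums of 136 to 8458 CPM in MM and 88.2 to 140 CPM in SHAM. T and NK cell markers summed to 4.29 to 24.3 CPM in MM and 3.66 to 8.53 CPM in SHAM, and 0 of 4 tested rose with edgeR. At an unadjusted edgeR p under 0.05, 2 of the 4 were higher, where 13.9% of all genes were. With DESeq2, which was run without the filter on low counts, 2 of the 14 listed rose, where 3.69% of 30729 genes did. They were the granzymes Gzma (log2 fold change 2.12, adjusted p = 0.0277) and Gzmb (3.21, adjusted p = 0.0166). Neutrophil markers summed to 21.5 to 123 CPM in MM and 22.2 to 293 CPM in SHAM (0 of 9 tested passed with edgeR, and 1 fell with DESeq2). Of 6 tested B cell markers 0 rose and 2 fell with edgeR, where 0.241% of all genes fell. Their list summed to 2.96 to 30.0 CPM in MM and 5.36 to 22.3 CPM in SHAM. With DESeq2, 1 of the 8 listed B cell markers rose and 4 fell, where 3.69% of 30729 genes rose and 243 fell. Erythroid markers, 6 of 6 tested, fell, with sums of 51.5 to 257 CPM in MM and 237 to 2998 CPM in SHAM. Of markers of endothelial cells (0 of 9), pericytes and smooth muscle (0 of 7) and fibroblasts (0 of 6), none passed. At an unadjusted edgeR p under 0.05, 1 endothelial marker was higher, where 13.9% of all genes were. MM5 had the highest fibroblast (3480 CPM), endothelial (404 CPM) and glial (16924 CPM) sums of all libraries, and the lowest sensory neuron sum (10568 CPM), with MM9 next lowest (14593 CPM). No marker of these lists was at 0 in every library of a group. In RNA from whole tissue, more cells of a type and more RNA per cell cannot be told apart. Without MM5, MM8 and MM9, 1 of the 15 macrophage and 0 of the 12 monocyte markers rose with edgeR, where 0.331% of all genes did. At an unadjusted edgeR p under 0.05, 8 and 3 of them were higher, where 5.4% of all genes were. In that fit 3 of the 6 B cell markers fell, where 7 of 15995 genes did. The part of these cells in the chemokine values was not tested.

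**Figure D5:**
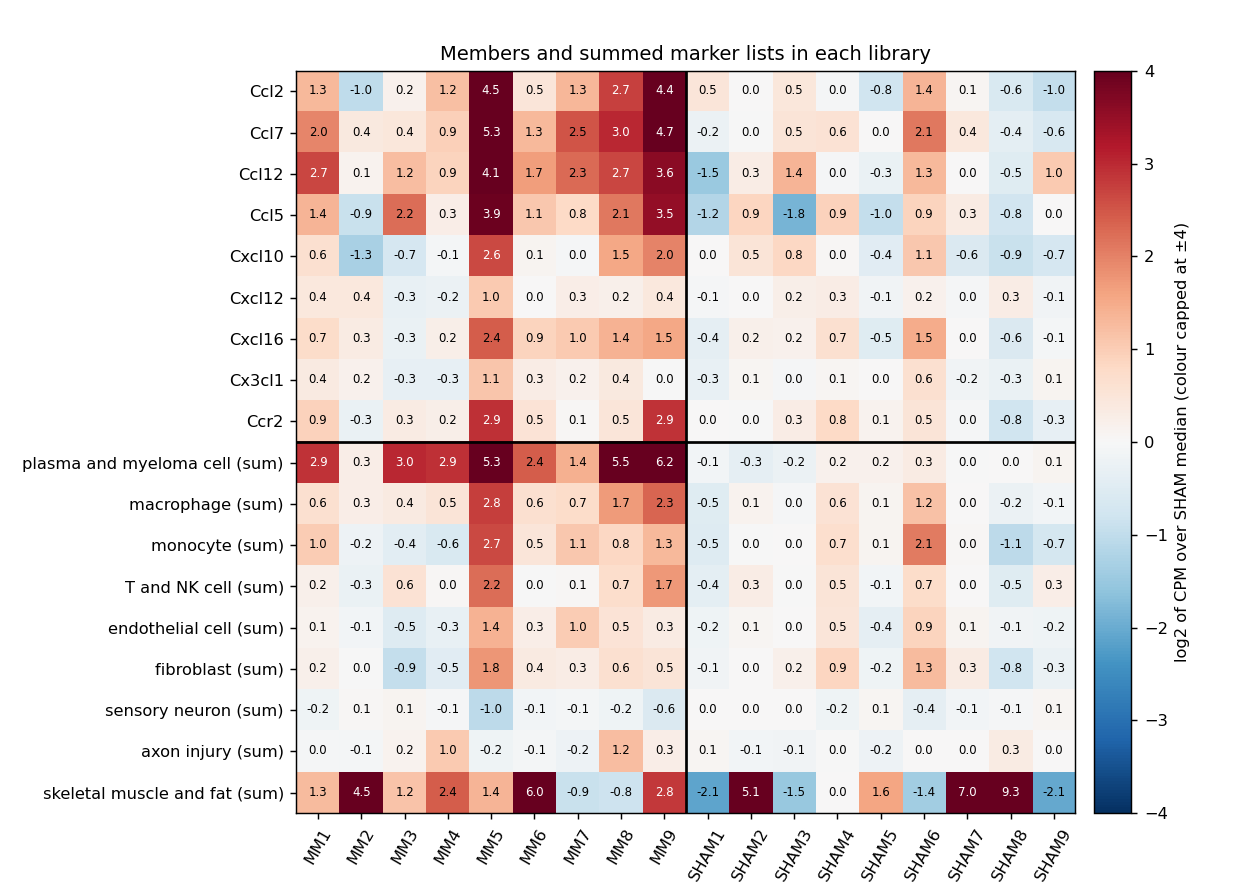
Log2 ratio of each library's CPM to the SHAM median for the 9 genes (upper block) and for summed marker lists (lower block), with MM libraries left of the line and SHAM libraries right. The columns of MM5 and MM9 are red for Ccl2, Ccl7, Ccl12, Ccl5 and Ccr2 and for the macrophage sum (835 and 618 CPM). MM8, with a plasma and myeloma cell sum of 5019 CPM, lies above every SHAM library for Ccl2, Ccl7, Ccl12 and Ccl5. For Ccr2 it lies within the SHAM range (4.90 CPM against a SHAM median of 3.46 CPM).

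The genes whose pattern was most like each of the 9 were found by Spearman's rank correlation of log2 CPM, centred within each group, over the 18 libraries, among genes with a mean of at least 1 CPM. The libraries share their depth and their make-up of cells, so these values are a description. For Ccl2 the nearest genes were Mms22l (0.93), Anln (0.92) and Cdc25b (0.92), for Ccl7 Icam1 (0.97), Ptbp1 (0.97) and Arhgap18 (0.97), and for Ccl12 Ifi47, Cd300c2 and Tgtp2 (0.92 each). For Ccl5 they were Clspn (0.88), Ptpn6 (0.87) and Ctdp1 (0.87), and for Cxcl10 Ppm1d (0.96), Tm9sf1 (0.96) and Sh3bp1 (0.95). For Cxcl12 they were Pnpla2 (0.83), Cyp27a1 (0.83) and Mn1 (0.81), for Cxcl16 Bicc1 (0.99), Ctsh (0.98) and Pros1 (0.98), and for Cx3cl1 Gpx8 (0.84), Tcf7l1 (0.84) and Por (0.83). Ccr2 was nearest to Arsi (0.89), Clec10a (0.89) and Slc10a3 (0.86). Among the 9 genes themselves, the highest values were 0.89 for Ccl7 and Cxcl16, 0.87 for Ccl2 and Ccl7, and 0.87 for Ccl2 and Cxcl10. The lowest was 0.26, for Ccl2 and Cx3cl1. Ccl12 had 0.66 with Ccl2 and 0.80 with Ccl7. Ccr2 had 0.81 with Cxcl10, 0.72 with Ccl7, 0.66 with Ccl2 and 0.61 with Ccl12.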

How the data were processed

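RNA from whole lumbar DRG was sequenced on DNBSEQ, 9 MM and 9 SHAM libraries, each taken as 1 mouse. The authors quantified transcripts with Salmon 1.5.2, per the submitters' processing notes, which name the GRCm39 build. The deposited files hold an estimated count and a TPM per transcript. A further deposited table gives each gene's normalized signal, which the authors obtained with DESeq2, per the same notes, with no version.

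Transcript values were added up by gene and estimated counts rounded, with links from GENCODE M21 (GRCm38), so identifiers serve as names and no gene positions from the files are given. Reads without a gene were 0.85% to 1.339% of a library. Genes were kept by filterByExpr (0.4909 CPM or more in at least 9 libraries), TMM-scaled, and compared by edgeR 4.0.16 under R 4.3.3 (quasi-likelihood, robust option) in a model of group alone. An adjusted p under 0.05 (Benjamini-Hochberg over all genes tested) counted as passing. CPM are TMM-scaled, and the common biological coefficient of variation was 0.258. Exact permutation tests went through all assignments with numpy 2.4.6 and are not adjusted over the 9 genes. Ranks for Spearman's correlation were taken with scipy 1.17.1. The edgeR script was tested on simulated data. The number of reads sets the precision of low values, and limits from counts cover counting error only.

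DESeq2 1.42.0, limma 3.58.1 on the deposited TPM and normalized signal, other scalings, no filter, a replicate block and left-out libraries were alternatives. DESeq2 was run without filterByExpr, but it gave some genes under that filter no adjusted p, among them Ccl20, Cxcl3, Ccr4 and Il1a. Its shares of 30729 genes include such genes as not called. The 9 genes and all lists were chosen with earlier results of these data known. Named were all 9 genes, up to 3 genes per direction with the lowest p past the threshold in each list, and the 3 genes most like each of the 9. Ccl1, Ccl8, Ccl11, Cxcl9, Pf4, Ccr1, Cxcr3, Cxcr4, Cx3cr1, Adam10, Adam17, Ccl4, Ccl19, Cxcl1, Cxcl13, Il1b, Il6, Gzma, Gzmb, Ackr1, Ackr3, Gnai2, Atf3, Cd68 and single monocyte markers were named outside that rule, with their values known. Summed marker levels are described, not tested. A listed receptor gene is not reported here.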

Additional observations from a re-analysis of the deposited data

Results flagged for a closer look

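In 8 of 24 groups of 9 libraries examined, 1 library lay far from the others by Dixon's ratio of gap to range (past its 95% critical value). For independent groups of normally spread values chance gives about 1 in 20. The groups examined share their libraries and every flag fell on MM5 or SHAM6, so that rate does not apply to them directly. MM5 was the far library in MM for Cxcl12 (68.8 CPM), Cxcl16 (22.9 CPM) and Cx3cl1 (16.1 CPM). SHAM6 was the far library in SHAM for Ccl2 (2.06 CPM), Ccl7 (2.40 CPM), Cxcl16 (11.8 CPM) and Cx3cl1 (11.4 CPM), and for the share of Cxcl12-202 in Cxcl12 TPM (62.2%). For Ccl2, Ccl7 and Ccr2 in MM, MM5 and MM9 were high together, so that neither stood far from its nearest neighbour.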

How the results depend on the processing

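The count of genes that rose, 433, was 1133 with DESeq2, 193 with limma on the deposited normalized values (with 55 that fell), 94 with limma on TPM, 7 with the replicate block, 53 without MM5, MM8 and MM9, 229 without MM2, SHAM5 and SHAM9, 29 without SHAM7 and SHAM8, and 75 to 891 with 1 library left out. The count that fell, 38, was in the same order 243, then 19 on TPM, 1, 7, 11 and 6, and 9 to 139 with 1 library left out; it was 19 with total counts alone and 20 with no filter. Of the 9 chemokine genes 4 rose. This was 1 with no filter, 0 with limma on the normalized values, 0 with limma on TPM, 0 with the replicate block, 1 without MM2, SHAM5 and SHAM9, 0 without MM5, MM8 and MM9, 0 when SHAM7 and SHAM8 were left out, and 0 to 5 with 1 library left out. Exact tests under 0.05 numbered 5, and 2 without MM5, MM8 and MM9, 3 when SHAM7 and SHAM8 were left out, and 4 to 6 with 1 library left out. Cxcl10 turned to -0.24 without MM5, MM8 and MM9. By estimated reads in place of TPM, Cxcl12-201 made up 64.5% in MM and 73.3% in SHAM, and Cxcl12-202 22.9% in MM and 17.1% in SHAM. By medians, 6 of 9 genes kept their place in MM and 5 in SHAM. Of 270 other values of single genes, 199 kept direction and side of the threshold. A further 68 lost the call, 2 gained it and 1 changed direction. All 68 were values of the 4 genes that rose. Of 18 fits with 1 library left out, Ccl2 lost the call in 11, Ccl7 in 11, Ccl12 in 8 and Ccl5 in 12. Of 12 other settings, they lost it in 7, 7, 5 and 7, in the same order. The cause of these changes was not tested.

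The replicate numbers are not stated to pair mice. Deviations of same-numbered libraries correlated between -0.32 and 0.26, and 2 of 9 libraries matched their own number best. These values cannot decide whether the numbers mark a shared batch, because differences in tumour, blood and muscle genes enter the same correlations. Depth limits Ccl5 most, with 2 reads in its lowest library.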

Other observations

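Ccl8 (ENSMUSG00000009185), a monocyte chemoattractant encoded beside Ccl12, was removed by the filter because 8 libraries, where 9 were needed, reached 0.4909 CPM; it was picked after its values were seen. It had 0.345 to 15.4 CPM in MM and 0 to 0.488 CPM in SHAM, in all 847 reads in MM and 39 in SHAM. The 9 MM libraries lay above the SHAM median, and MM2 alone lay within the SHAM range. With no filter, an alternative chosen after seeing the data, its log2 fold change was 4.33 ± 0.76 (SE; edgeR adjusted p = 0.0182), where 1.02% of 30729 genes rose. With 1 library left out, edgeR's adjusted p stayed between 0.00492 and 0.0467. Without MM5, MM8 and MM9 it was 2.66 ± 0.46 (edgeR adjusted p = 0.0134), where 0.284% of 29890 genes rose.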
